A study of Mus musculus with 6 samples.

Results

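The genes described here are the insulin-like growth factors, their receptors and their binding proteins in the mouse trigeminal ganglion, which holds the sensory neurons of the face. Members were chosen by gene symbol: Igf1, Igf2, Igf1r, Igf2r, Igfbp2, Igfbp3, Igfbp4, Igfbp5, Igfbp6 and Igfbp7. All 10 were among the 16415 genes of the deposited table, and all 10 passed the filter on low values. Bulk messenger RNA was sequenced in 3 libraries of the treatment named SETDB2-up and 3 of the treatment named NC-up. All 6 libraries carry the genotype label WT. The labels used here give neither the vector or route of the treatments nor the strain, sex or age of the mice. They also do not state whether each library is a different animal. The p-values set the difference between the groups against the spread of libraries within a group, which may be only technical.

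Insulin-like growth factors 1 and 2 are small secreted relatives of insulin that act on growth, survival and differentiation. Both signal through the tyrosine kinase receptor encoded by Igf1r, whereas the receptor encoded by Igf2r carries no kinase, takes up and degrades the Igf2 ligand and sorts lysosomal enzymes that bear mannose 6-phosphate. Secreted binding proteins hold the ligands outside the cell, and can block, store or deliver them. In nerve, the ligands are known as trophic factors for neurons and Schwann cells, while Igf2 is also abundant in the meninges and other connective tissue.

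Values are read counts per gene that the authors divided by 1 factor per library. The whole reads behind them summed to 21548941, 20355707 and 23501386 in SETDB2-up libraries 1 to 3 and to 19334997, 21734814 and 23395693 in NC-up libraries 1 to 3. Setdb2 itself had 113, 97.6 and 104 normalised reads in SETDB2-up, against 69.9, 58.4 and 71.5 in NC-up, and rose by 0.65 on the log2 scale (SE 0.19, limma adjusted p = 0.0253). That call was kept in 12 of 18 alternative settings and lost in 6, among them the GC correction (0.49, limma adjusted p = 0.141). The 13 sensory neuron markers summed to between 477919 and 497001 in SETDB2-up and between 480627 and 505895 in NC-up, and none was at 0. SETDB2-up libraries 1 and 2 stood apart in liver transcripts, with 1673 and 3769 normalised reads of Alb (albumin), against 11.6 in SETDB2-up library 3 and 0 in all 3 NC-up libraries.

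In SETDB2-up, 6 of the 10 members fell (limma adjusted p under 0.05) and none rose: the ligand Igf2 and 5 of the 6 binding proteins. Over all 16387 genes tested, 16.4% changed, with 7.71% higher and 8.71% lower in SETDB2-up. The median log2 fold change was -0.27 over the 10 members and 0.00043 over all genes tested. After GC correction it was -0.19 over the 10 members and 0.0072 over the 15313 genes fitted. Neither receptor passed the test, nor did Igf1 or Igfbp6. EdgeR on the recovered whole reads also called 6 members, all lower, against 8.99% of all genes lower and 7.37% higher. By range alone, 5 members had all SETDB2-up values below all NC-up values, a pattern held by 16.4% of genes, and 1 member had them all above, as did 16.8% of genes.

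**Figure D1:**
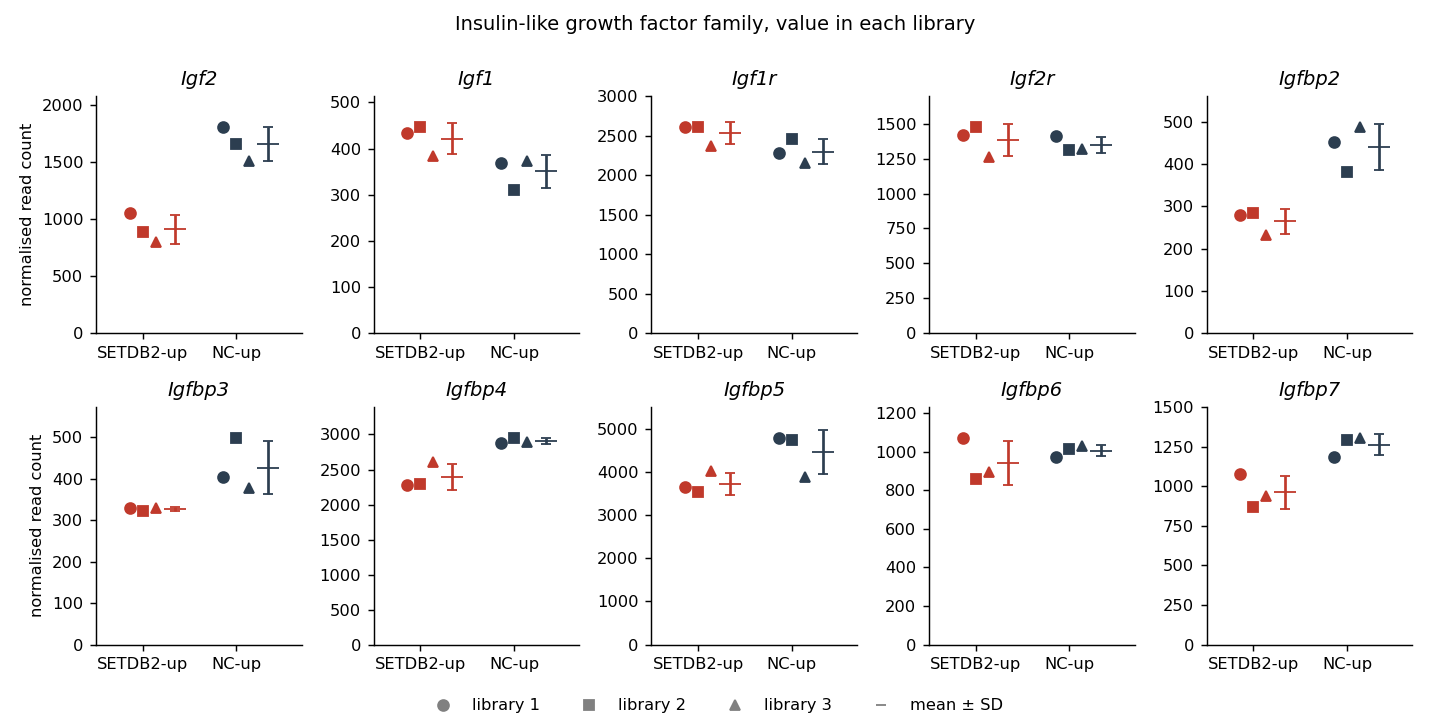
Normalised read count of each member in each library, SETDB2-up (red) left of NC-up (dark), with the mean and SD beside the points and a separate axis from 0 for each gene. The groups of Igf2, Igfbp2, Igfbp3, Igfbp4 and Igfbp7 do not overlap, with SETDB2-up lower; those of Igf1 do not overlap either, with SETDB2-up higher.

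The windows just before the annotated start are shown for the members with the largest falls, Igf2 and Igfbp2, and for Igfbp6, a binding protein that did not pass the test. They are the 250 bases before the first base of the gene as the table gives it, 5′ to 3′ on the gene's strand, from RefSeq on GRCm38.p6. Capitals mark the GC box GGGCGG and the Krüppel-like core CACCC, on either strand; the Krüppel-like core is included because the series title names KLF4.
Igf2 (chr7:142666817-142667066, minus strand): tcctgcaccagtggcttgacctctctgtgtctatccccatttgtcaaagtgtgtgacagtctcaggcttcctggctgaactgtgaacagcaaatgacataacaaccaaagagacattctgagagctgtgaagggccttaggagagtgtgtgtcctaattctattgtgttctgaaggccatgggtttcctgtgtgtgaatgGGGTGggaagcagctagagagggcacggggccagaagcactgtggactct
Igfbp2 (chr1:72824230-72824479, plus strand): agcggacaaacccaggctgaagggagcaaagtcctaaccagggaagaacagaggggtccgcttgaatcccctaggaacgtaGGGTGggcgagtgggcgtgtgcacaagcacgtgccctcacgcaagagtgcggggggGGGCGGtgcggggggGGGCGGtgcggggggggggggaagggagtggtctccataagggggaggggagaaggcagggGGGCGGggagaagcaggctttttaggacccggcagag
Igfbp6 (chr15:102143936-102144185, plus strand): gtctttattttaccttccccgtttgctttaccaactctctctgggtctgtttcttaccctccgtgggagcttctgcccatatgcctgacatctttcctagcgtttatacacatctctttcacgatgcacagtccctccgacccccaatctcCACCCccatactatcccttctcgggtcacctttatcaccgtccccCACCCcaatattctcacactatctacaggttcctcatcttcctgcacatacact
The Igfbp2 window held 3 GC boxes and 1 Krüppel-like core, that of Igf2 held 1 Krüppel-like core and no GC box, and that of Igfbp6 held 2 Krüppel-like cores and no GC box. No 2 of these matches shared a base. Across the 32851 windows of the same length in the RefSeq table, 32.7% held a GC box and 52.0% a Krüppel-like core. In the RefSeq table the 10 members have 14 windows, 4 of them for Igf2. Of the 14, 10 held a Krüppel-like core and 6 a GC box. Some lie before an annotated start other than the first base of the gene, among them the only windows of Igf1, Igfbp3 and Igfbp4. Of the Igf2 windows not shown, 142658805 to 142659054 held 1 GC box and 4 Krüppel-like cores. The window 142657497 to 142657746 held 2 GC boxes and 4 Krüppel-like cores, and 142661272 to 142661521 held neither. The Igfbp2 window not shown, 72825137 to 72825386, held 2 Krüppel-like cores and no GC box. The read counts do not say from which start a transcript came.

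Igf2, an imprinted fetal growth factor (gene 16002, chromosome 7, 142650768 to 142666816, GRCm38), had 1053, 888 and 802 normalised reads in SETDB2-up libraries 1 to 3, against 1814, 1663 and 1512 in NC-up libraries 1 to 3. Every SETDB2-up library lay well below every NC-up library. The means were 914 ± 127 in SETDB2-up and 1663 ± 151 in NC-up (SD, n = 3 each), so that SETDB2-up held 55.0% of the NC-up level. The log2 fold change was -0.87 ± 0.09 (SE; 95% interval -1.06 to -0.68; limma adjusted p = 5.46e-06), the 28th smallest p of all genes tested. Igf2 passed in all 18 alternative settings, with log2 fold changes from -1.05 to -0.74.

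Igf1, the growth factor that mediates much of growth hormone's action (gene 16000, chromosome 10, 87858265 to 87937047), had 433, 448 and 383 normalised reads in SETDB2-up, against 369, 309 and 374 in NC-up. All 3 SETDB2-up values were above the NC-up values, though SETDB2-up library 3 exceeded NC-up library 3 by little. The log2 fold change of 0.27 ± 0.11 (SE; 95% interval 0.04 to 0.49) did not pass the test (limma adjusted p = 0.0987). Igf1 passed in 1 of 18 alternative settings, that without SETDB2-up library 3 (log2 fold change 0.33, limma adjusted p = 0.0471). After GC correction the log2 fold change was 0.04 (limma adjusted p = 0.854).

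The balance of the ligands differed between the groups in the deposited values. Per kilobase of annotated exon, Igf2 was 4.20, 3.43 and 3.63 times as abundant as Igf1 in SETDB2-up libraries 1 to 3, and 8.51, 9.30 and 7.01 times in NC-up libraries 1 to 3. Igf1 thus made up 21.1% ± 1.7 of the summed ligand level in SETDB2-up and 10.9% ± 1.4 in NC-up (SD, n = 3 each), with Igf2 the larger part in every library. The summed ligand level was 202 ± 24.5 normalised reads per kilobase in SETDB2-up and 326 ± 26.3 in NC-up (SD, n = 3 each). These ratios, shares and sums were not corrected for GC content. After GC correction the log2 fold change was 0.04 for Igf1 and -0.74 for Igf2. In bulk tissue, fewer cells of a type and less RNA per cell cannot be told apart.

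H19, the maternally expressed noncoding RNA of the same imprinted region, which lies 72621 bases from the Igf2 gene, also fell. It had 286, 277 and 434 normalised reads in SETDB2-up, against 610, 614 and 518 in NC-up, without overlap (log2 fold change -0.83 ± 0.14 SE, limma adjusted p = 0.00048). Its call was kept in 17 of 18 alternative settings, among them the GC correction (-0.71, limma adjusted p = 0.00293). It was lost in the fit without SETDB2-up libraries 1 and 2, where the value was -0.42. SETDB2-up library 3 was the highest of its group for H19 and the lowest for Igf2. The ratio of Igf2 to H19 normalised reads was accordingly 3.68, 3.21 and 1.85 in SETDB2-up, a range that spans the 2.97, 2.71 and 2.92 of NC-up.

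The receptors did not pass the test. Igf1r, the signalling receptor (gene 16001, chromosome 7, 67952257 to 68233668), had 2610, 2615 and 2375 normalised reads in SETDB2-up, against 2279, 2462 and 2158 in NC-up. SETDB2-up library 3 lay inside the NC-up range. The log2 fold change was 0.14 ± 0.07 (SE; 95% interval 0.00 to 0.28; limma adjusted p = 0.156), and passed without SETDB2-up library 3 (0.19, limma adjusted p = 0.0464). Igf2r, the clearance and sorting receptor (gene 16004, chromosome 17, 12682406 to 12769706), had 1420, 1479 and 1258 normalised reads in SETDB2-up, against 1412, 1312 and 1319 in NC-up. The groups overlapped throughout (log2 fold change 0.04 ± 0.07 SE; 95% interval -0.12 to 0.19; limma adjusted p = 0.771). Airn, the antisense noncoding RNA that silences paternal Igf2r in other mouse tissues, overlaps it with 3.58% of its reads and did not pass either (log2 fold change -0.19 ± 0.28 SE, limma adjusted p = 0.689). Seen from Airn, Igf2r has 2790% of its reads on the opposite strand, and without the counter's strand setting reads of the pair cannot be told apart.

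Among the binding proteins, Igfbp2 fell the most. It encodes a binding protein found with Igf2 in cerebrospinal fluid (gene 16008, chromosome 1, 72824480 to 72852474). It had 279, 284 and 231 normalised reads in SETDB2-up, against 451, 380 and 488 in NC-up. The groups did not overlap, and SETDB2-up held 60.2% of the NC-up mean (log2 fold change -0.73 ± 0.12 SE; 95% interval -0.98 to -0.48; limma adjusted p = 0.00047). After a correction for GC content it missed the threshold at -0.44 ± 0.13 (SE, limma adjusted p = 0.0513). It was called in the other 17 alternatives.

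Igfbp5, which binds matrix and is made by muscle, bone and glia, lies 5590 bases from Igfbp2 on the opposite strand (gene 16011, chromosome 1, 72858065 to 72874865). It had 3650, 3536 and 4020 normalised reads in SETDB2-up, against 4800, 4749 and 3888 in NC-up. The groups overlapped, because NC-up library 3 lay below SETDB2-up library 3. Its log2 fold change was -0.26 ± 0.07 (SE; 95% interval -0.41 to -0.10; limma adjusted p = 0.0231), and stood at -0.26 after GC correction too (limma adjusted p = 0.0374). The call was lost without SETDB2-up library 1 (limma adjusted p = 0.104) or 2 (limma adjusted p = 0.0976), and without NC-up library 1 (limma adjusted p = 0.0995) or 2 (limma adjusted p = 0.128).

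Igfbp7, a binding protein of low affinity for the ligands that endothelium secretes (gene 29817, chromosome 5, 77349240 to 77408045), had 1076, 867 and 939 normalised reads in SETDB2-up, against 1187, 1293 and 1305 in NC-up. The groups did not overlap (log2 fold change -0.40 ± 0.08 SE; 95% interval -0.57 to -0.23; limma adjusted p = 0.00288). After GC correction the value was -0.20 (limma adjusted p = 0.179). Polr2b overlaps Igfbp7 on the opposite strand with 144% of its reads, and no source used here says how strand entered the counting.

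Igfbp4, an inhibitory binding protein that the protease encoded by Pappa cleaves (gene 16010, chromosome 11, 99040005 to 99052655), had 2277, 2294 and 2606 normalised reads in SETDB2-up, against 2876, 2953 and 2898 in NC-up. NC-up libraries were tightly grouped, and SETDB2-up library 3 lay nearest to them (log2 fold change -0.28 ± 0.06 SE; 95% interval -0.42 to -0.15; limma adjusted p = 0.00502). After GC correction it was -0.18 (limma adjusted p = 0.0549). Pappa did not pass the test, at 217, 244 and 235 normalised reads in SETDB2-up, against 203, 158 and 167 in NC-up (log2 fold change 0.40 ± 0.14 SE, limma adjusted p = 0.0502). Its groups did not overlap, and it passed in 5 of 18 alternative settings, with its lowest adjusted p, 0.0183 in limma, without NC-up library 1.

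Igfbp3, the main carrier of the ligands in blood (gene 16009, chromosome 11, 7206086 to 7215498), had 331, 321 and 329 normalised reads in SETDB2-up, against 405, 499 and 378 in NC-up. The groups did not overlap, with NC-up library 2 the highest (log2 fold change -0.37 ± 0.11 SE; 95% interval -0.61 to -0.14; limma adjusted p = 0.0264). Its call was lost without NC-up library 2 (-0.26, limma adjusted p = 0.148), without SETDB2-up library 1 (limma adjusted p = 0.0933) or 2 (limma adjusted p = 0.0845), and after GC correction (-0.33, limma adjusted p = 0.0834).

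Igfbp6, which prefers the Igf2 ligand over Igf1 (gene 16012, chromosome 15, 102144186 to 102149512), was the binding protein that did not pass. It had 1073, 858 and 897 normalised reads in SETDB2-up, against 975, 1015 and 1032 in NC-up, and SETDB2-up library 1 was the highest of all 6. Its log2 fold change was -0.10 ± 0.08 (SE; 95% interval -0.28 to 0.07; limma adjusted p = 0.442) and turned to 0.15 (limma adjusted p = 0.384) after GC correction.

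**Figure D2:**
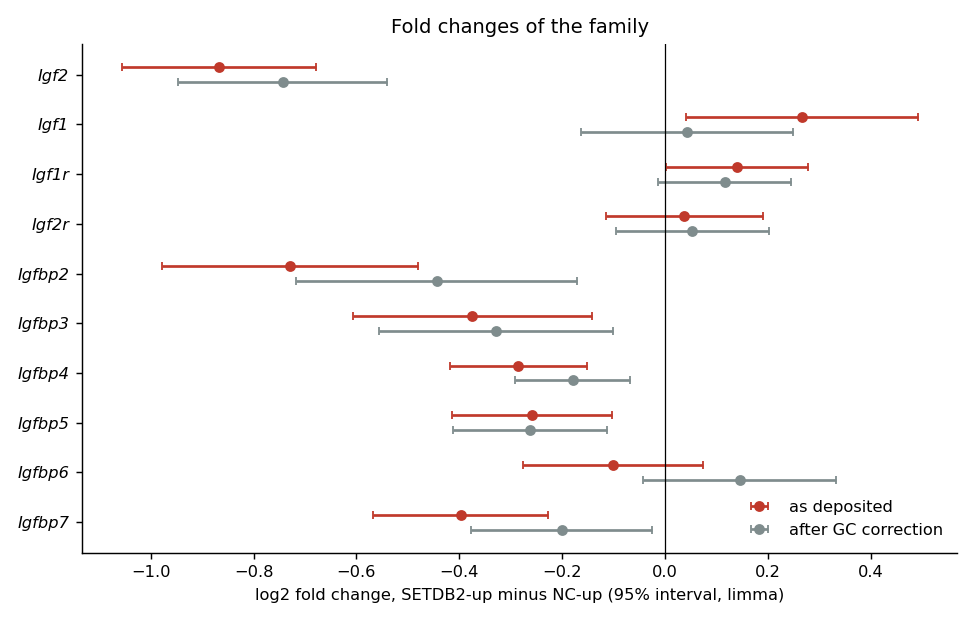
Log2 fold change, SETDB2-up minus NC-up, with its 95% limma interval for each member, from the deposited values (red) and after GC correction (grey). Igf2 stays at -0.74 after the correction, while Igfbp2 moves to -0.44 and Igf1 to 0.04.

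Levels between genes were compared per kilobase of annotated exon, without correction for GC content. In SETDB2-up the order of mean levels was Igfbp6, Igfbp7, Igfbp5, Igfbp4, Igf2, Igf1r, Igf2r, Igfbp2, Igfbp3 and Igf1. In NC-up it was Igfbp7, Igfbp6, Igfbp5, Igfbp4, Igf2, Igfbp2, Igf2r, Igf1r, Igfbp3 and Igf1. The highest means were 848 ± 103 (Igfbp6) in SETDB2-up and 1043 ± 53.9 (Igfbp7) in NC-up, and the lowest, both of Igf1, were 42.5 ± 3.43 in SETDB2-up and 35.4 ± 3.61 in NC-up (normalised reads per kilobase, SD, n = 3 each). In SETDB2-up, library values of Igf2 (140 to 184), Igf1r (141 to 156), Igf2r (135 to 159) and Igfbp2 (125 to 154) overlapped. In NC-up, Igf2 (264 to 317) and Igfbp2 (206 to 264) lay apart from each other by less than 1 read per kilobase and above both receptors. Igfbp6 and Igfbp7 overlapped in SETDB2-up, Igfbp5 and Igfbp4 overlapped in both groups, and Igf2r, Igf1r and Igfbp3 overlapped in NC-up as neighbours.

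The summed level of the 6 binding proteins was 3054 ± 192 normalised reads per kilobase in SETDB2-up and 3728 ± 68.5 in NC-up (SD, n = 3 each). Relative to the summed ligands, the binding proteins stood at 14.2, 14.2 and 17.2 in SETDB2-up and at 10.4, 11.8 and 12.2 in NC-up. Within the binding proteins, Igfbp6 made up 27.7% ± 1.9 in SETDB2-up and 24.3% ± 0.7 in NC-up, and Igfbp2 made up 4.71% ± 0.66 in SETDB2-up and 6.40% ± 0.90 in NC-up (SD, n = 3 each). Igfbp4 held 17.8% ± 1.7 in SETDB2-up and 17.7% ± 0.1 in NC-up (SD, n = 3 each).

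**Figure D3:**
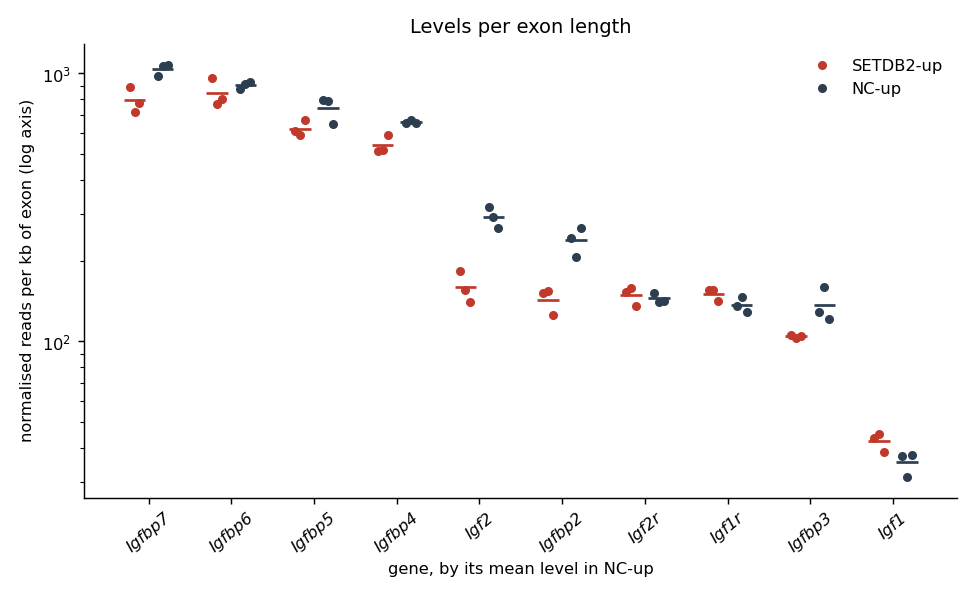
Normalised reads per kilobase of annotated exon (log axis) for each member in each library, SETDB2-up (red) left of NC-up (dark), with bars at the group means and genes ordered by their NC-up mean. Igf2 and Igfbp2 stand above both receptors in NC-up and beside them in SETDB2-up.

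Fold changes across all genes moved with base composition, and the members differ in it. With genes in 10 deciles of transcript GC content, the median log2 fold change was 0.21 in decile 1, the lowest in GC, and -0.23 in decile 10. Igf1, with 38.0% GC, lies in decile 1, where 26.9% of genes were called higher. Igfbp2 (62.1% GC), Igfbp6 (60.7%) and Igfbp7 (58.8%) lie in decile 10, where 34.5% of genes were called lower. Igf2 (55.8%) lies in decile 9, where 17.6% were called lower, and Igfbp5 (50.3%) in decile 6, where 5.49% were. After the correction 2 members fell, Igf2 (-0.74 ± 0.10 SE, limma adjusted p = 0.00020) and Igfbp5, against 6.11% of the 15313 genes fitted, 2.14% higher and 3.96% lower. Over all genes, 328 were then higher and 607 lower, while 1263 were higher and 1427 lower as deposited.

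**Figure D4:**
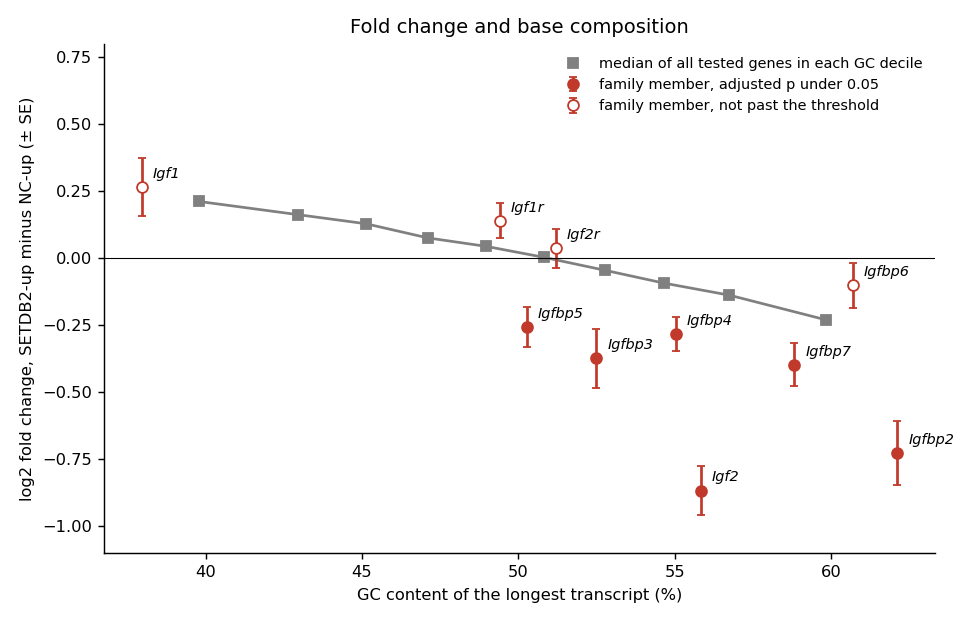
Log2 fold change, SETDB2-up minus NC-up (± SE), of each member against the GC content of its longest transcript; filled points passed the test, and grey squares are medians of all tested genes in each decile of GC content. Igf2, at -0.87, lies farthest below the grey line, whose decile 9 has a median of -0.14.

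Of the 6 meningeal markers, 4 fell and none rose (8.71% of all genes fell), with a median log2 fold change of -0.74. They were Foxd1, a transcription factor (-1.05 ± 0.14 SE), the transporters Slc47a1 (-0.82 ± 0.16 SE) and Slc22a6 (-0.76 ± 0.25 SE), and Slc6a13, a GABA transporter (-0.73 ± 0.12 SE). The call of Slc22a6 was lost with edgeR (adjusted p = 0.0560), and limma after GC correction kept the other 3 but not Slc22a6 (adjusted p = 0.0852). The 6 summed to between 682 and 845 normalised reads in SETDB2-up and between 1221 and 1456 in NC-up, and none was at 0. Of the 11 fibroblast markers, 4 fell (Col1a1, Col1a2, Col3a1 and Fbln1) and none rose, and the list summed to between 22424 and 26104 normalised reads in SETDB2-up and between 25571 and 30254 in NC-up, none at 0. Of these 4, Col3a1 did not pass after GC correction (limma adjusted p = 0.0796). The 7 that did not pass had log2 fold changes of 0.01 (Dcn), 0.00 (Pdgfra), 0.15 (Lum), 0.01 (Dpt), 0.03 (Mfap5), -0.62 (Pi16) and -0.29 (Clec3b). None of them passed after GC correction either. Dcn then stood at -0.22 (limma adjusted p = 0.0533), Lum at -0.02, Pi16 at -0.52 and Clec3b at -0.05. Of the 9 endothelial markers 2 fell as deposited and 0 after GC correction, none was at 0 in all libraries of a group, and the list summed to between 3735 and 3833 in SETDB2-up and between 4093 and 4259 in NC-up. Of the 5 keratinocyte markers tested 4 fell (3 after GC correction), with a median log2 fold change of -1.15. The 6 in the table summed to between 276 and 280 in SETDB2-up, with 1 at 0 in all 3 libraries, and between 319 and 698 in NC-up. Of the 6 skeletal muscle markers tested 3 fell (2 after GC correction), with a median log2 fold change of -1.25 and sums between 49.8 and 129 in SETDB2-up and between 108 and 279 in NC-up. Of the 7 Schwann cell markers 4 fell as deposited and 1 after GC correction, with sums between 274012 and 313913 in SETDB2-up and between 308428 and 323814 in NC-up. Of the 5 satellite glia markers 1 rose and none fell, with a median log2 fold change of 0.15 and sums between 19054 and 21205 in SETDB2-up and between 18143 and 19033 in NC-up. Perineurial markers (4) and mural cell markers (9) each had 1 that rose and none that fell. Among 10 macrophage markers 1 fell and none rose, as among 5 red blood cell markers. After GC correction 1 perineurial marker rose, 1 red blood cell marker fell and no mural cell or macrophage marker passed. The part of these cells in the falls of Igf2 and the binding proteins was not tested.

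**Figure D5:**
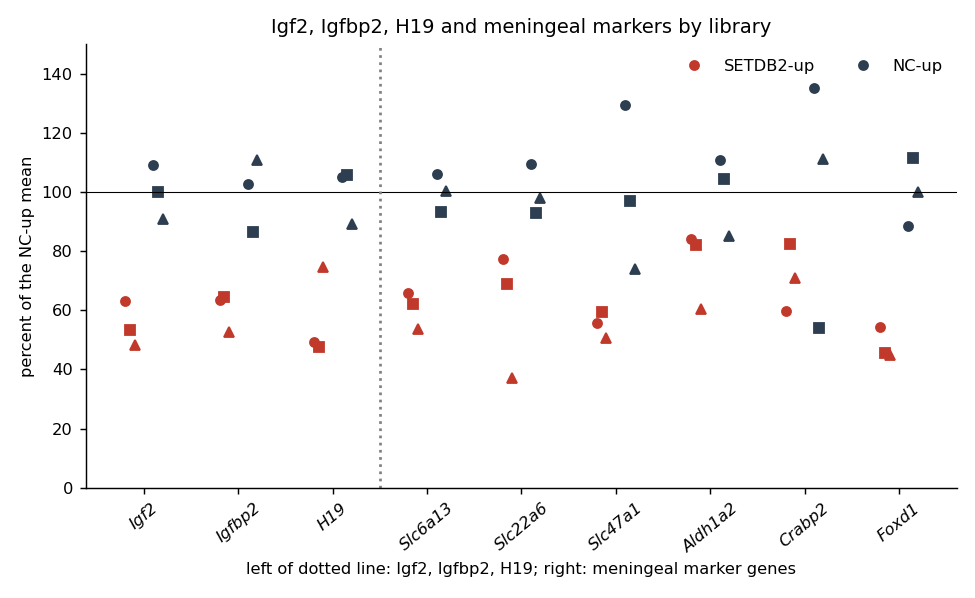
Level in each library as a percent of the NC-up mean for Igf2, Igfbp2 and H19 (left of the dotted line) and the 6 meningeal markers (right), SETDB2-up in red left of NC-up in dark; circles, squares and triangles are libraries 1, 2 and 3. Igf2 lies between 48.2% and 63.3% in SETDB2-up, and Slc6a13 between 53.7% and 65.8%.

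Liver also makes Igf1, Igfbp2 and Igfbp4, so values are given for SETDB2-up library 3, the one with few liver transcripts. The 13 liver markers in the table summed to 2987, 6984 and 83.0 normalised reads in SETDB2-up libraries 1 to 3 and to between 51.9 and 71.5 in NC-up, where 6 were at 0 in all 3 libraries. Without SETDB2-up libraries 1 and 2, which leaves 1 library assumed to vary like NC-up, 3 members fell and none rose, against 2.73% of all genes called, 1.84% lower and 0.891% higher. They were Igf2 (log2 fold change -1.05), Igfbp2 (-0.92) and Igfbp7 (-0.42), while Igf1 stood at 0.13. Igfbp3 (-0.36), Igfbp4 (-0.16) and Igfbp5 (-0.15) then missed the threshold. The part of liver RNA in the values of SETDB2-up libraries 1 and 2 was not tested.

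By the root mean square difference of centred log2 values over the 6 libraries, the genes most like Igf2 among 12231 with a mean of at least 100 normalised reads were Gm38457 (0.083), the antisense RNA Fam219aos (0.109) and the meningeal marker Slc6a13 (0.112). Slc6a13 had 239, 226 and 195 normalised reads in SETDB2-up, against 387, 340 and 366 in NC-up. The genes most like Igf1 were Samd12 (0.021), Nubpl (0.034) and Rab30 (0.035). Samd12 had 789, 825 and 684 normalised reads in SETDB2-up, against 654, 554 and 661 in NC-up. Each likeness rests on the same 6 libraries, whose groups differ along GC content as given above. Values were centred over both groups together, so a like difference between the groups alone makes genes rank as alike. Likeness within a group was not tested.

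Beyond the 10 members, 71 genes of the pathway were listed. Some were absent from the deposited table, and the 62 that it held were all tested. Of these 7 fell and 4 rose, 11 in all, a share near the 16.4% of all genes that changed (8.71% lower, 7.71% higher), with a median log2 fold change of -0.01. Insr, the insulin receptor, had 922, 1041 and 962 normalised reads in SETDB2-up, against 876, 1028 and 915 in NC-up (log2 fold change 0.05 ± 0.08 SE, limma adjusted p = 0.688). Insrr, its orphan relative, did not pass (-0.24 ± 0.20 SE), nor did Igfals, the acid-labile subunit of the circulating complex (-0.11 ± 0.34 SE), or Igfbpl1 (-0.23 ± 0.51 SE), both at under 31 normalised reads in every library. Htra1, a secreted protease that cleaves binding proteins, was at -0.02 ± 0.06 (SE). None passed of the 7 tested genes listed as extracellular carriers and proteases, a list that also holds the cell-surface proteins Lrp1 and Tmem219. Nor did any of the 4 genes of the growth hormone axis or the 4 genes of mannose 6-phosphate sorting.

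Inside the cell, 6 of 37 signalling genes fell and 3 rose, against 8.71% of all genes lower and 7.71% higher, so that the number that rose is near the background. Those that fell were the kinases Gsk3a (-0.35 ± 0.06 SE, limma adjusted p = 0.00116) and Akt1 (-0.32 ± 0.06 SE, limma adjusted p = 0.00154), the phosphoinositide 3-kinase subunit Pik3r2 (-0.28 ± 0.06 SE), the mTOR complex component Akt1s1 (-0.35 ± 0.08 SE), the transcription factor Foxo6 (-0.78 ± 0.21 SE) and the adaptor Irs2 (-0.20 ± 0.07 SE). Those that rose were Pdpk1, the kinase that activates Akt (0.25 ± 0.06 SE), Rictor, of mTOR complex 2 (0.30 ± 0.08 SE), and the ubiquitin ligase Nedd4 (0.17 ± 0.05 SE). Akt2, Mtor and Irs1 did not pass. None of these 9 passed after GC correction, where Gsk3a was at -0.13 and Akt1 at -0.10, and other genes of the list fell, among them Grb14 (-0.39) and Rheb (-0.29). All 7 pathway genes that fell as deposited lie in GC deciles 9 and 10, and the 4 that rose lie in deciles 2 and 3.

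Igf2bp3, which binds Igf2 messenger RNA and is best known from the embryo, rose. It had 118, 97.6 and 86.6 normalised reads in SETDB2-up, against 46.6, 58.4 and 54.5 in NC-up, without overlap (log2 fold change 0.90 ± 0.21 SE, limma adjusted p = 0.00664). It stayed called after GC correction (0.80, limma adjusted p = 0.0286) and lost the call without SETDB2-up library 1 (0.78, limma adjusted p = 0.0764) and without SETDB2-up libraries 1 and 2 (0.70, limma adjusted p = 0.436). Malsu1 overlaps it on the opposite strand with 386% of its reads. Its relative Igf2bp2 did not pass (-0.49 ± 0.19 SE, limma adjusted p = 0.0817). Ide, named in the series title, encodes a protease that degrades insulin and can cleave the Igf2 ligand. It had 1358, 1269 and 1282 normalised reads in SETDB2-up, against 2376, 2166 and 2245 in NC-up (log2 fold change -0.80 ± 0.06 SE, limma adjusted p = 1.91e-07).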

How the data were processed

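Poly(A)-enriched RNA of mouse trigeminal ganglion was sequenced from strand-specific libraries, per the labels' protocols. FastQC, HISAT2 and GRCm38 were used, per the submitters' processing notes; no source used here names the counter, its strand setting or any filter applied before deposit. The deposited signal per gene is a read count that the authors divided by 1 factor per library: 100% of values are whole multiples of a library's step (tolerance 0.001 read). Depth was 19334997 to 23501386 recovered reads per library, and 3 reads equal 0.128 to 0.155 CPM; this floor covers counting error only.

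In R 4.3.3, log2(value + 1) was fitted by limma 3.58.1 (trend option) for the 16387 genes that reached 1 normalised read in 3 or more libraries (28 removed), with Benjamini-Hochberg adjustment over all of them. Fold changes are on that scale and understate the change of low genes. No pair of libraries within a group matched to sampling noise, with chi-square over degrees of freedom from 3.97 to 9.93. EdgeR 4.0.16 and DESeq2 1.42.0 ran on recovered reads. The scripts were tested on simulated data. Exon lengths and GC content came from GENCODE M21 (GRCm38; 15341 genes, 93.5%, and all 10 members), the correction from a loess trend of each library on GC (span 0.3), and promoter windows from RefSeq. Members, lists and alternatives were chosen with earlier results of these data known. Named were all members, the extracellular pathway genes, the called pathway genes with the smallest p, H19, Ide, Alb and the 3 genes most like each ligand; Setdb2, Airn and genes named to complete a count were added.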

Additional observations from a re-analysis of the deposited data

How the results depend on the processing

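Across 18 alternative settings, all 10 members kept their direction except Igf2r and Igfbp6, which did not pass in any setting. Igf2 passed in all 18. The number of members that fell or rose was 6 under another pseudocount, other filters, TMM scaling, edgeR, DESeq2, limma-voom and the replicate block. It was 2 after GC correction, 3 without SETDB2-up replicates 1 and 2 together, and between 4 and 8 when 1 library was left out; without SETDB2-up library 3, Igf1 and Igf1r were called higher. Of the other pathway genes 11 were called, 17 with the replicate block, 5 after GC correction, 0 without SETDB2-up replicates 1 and 2, and 5 to 14 with 1 library left out (5 without SETDB2-up library 1, 7 without SETDB2-up library 2 or NC-up library 2). Over all genes 2690 were called, 935 after GC correction, 447 without SETDB2-up replicates 1 and 2, and 1082 to 3335 with 1 library left out (1082 without SETDB2-up library 1, 1575 without SETDB2-up library 2, 1611 without NC-up library 2). The cause of these moves was not tested, and the fits with libraries left out also rest on fewer libraries.

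The labels used here do not say whether same-numbered libraries were paired, and the main fit took them as unpaired. Their deviations from the group means correlated at 0.038, 0.036 and 0.048, against -0.035 to -0.0056 between libraries of different number. Each library thus correlated best with its own number, though weakly. Deviations within a group cancel out, so positive values at the same number go with negative values between numbers. The contrast is therefore partly set by the centring. The replicate block moved the count over all genes to 3618 and the members' count not at all. Only 3 libraries a group limit what can be seen at the size of the changes in Igf1r, Igf2r and Igfbp6.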
